A study of Mus musculus with 2 samples.

Results

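The Fc receptor genes were examined in the mRNA of monocytic myeloid-derived suppressor cells (M-MDSC), suppressive cells of the monocyte lineage. The members were the rows of the deposited gene table that carry the symbols Fcgr1, Fcgr2b, Fcgr3, Fcgr4, Fcer1g, Fcgrt and Fcer2a, and all 7 were found among 34745 genes. The rule itself uses the symbols and no measured value, although the list was drawn up with earlier results of these data known. Bone marrow of mice aged 6 to 8 weeks was cultured for 7 days with GM-CSF, a growth factor of myeloid cells, at 50 ng/ml. The CHBP- M-MDSC library came from cells given GM-CSF alone, and the CHBP+ M-MDSC library from cells that also received CHBP, a cyclic helix B peptide derived from erythropoietin. Both were sorted by flow cytometry as CD11b+Ly6G-Ly6C high cells. As labelled, the CHBP- cells were of strain C57BL/6 and the CHBP+ cells of strain C57BL/7, while C57BL/6 mice are named in the methods. Each condition was 1 library, and whether the libraries came from separate animals or cultures is not given in the sources used here. CHBP therefore cannot be told apart from any other difference between the libraries, and every test below sets one library against the other and accounts for counting error alone.

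The libraries held 16484504 counted reads (CHBP-) and 16280466 (CHBP+). Genes of the sort were present in both: Itgam, which encodes CD11b, had 157 and 232 FPKM (counted reads scaled to gene length and library total), and Ly6g was at 2.19 and 2.12 FPKM. Itgam has another, overlapping entry in the table, with 8703 and 13147 reads. Ly6c2, a gene of the Ly6C antigen used in the sort, was at 56.9 FPKM in CHBP- and 34.0 FPKM in CHBP+.

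Fc receptors bind the constant part of antibodies and so tie antibody to myeloid effector functions such as phagocytosis. Most Fc gamma receptors (FcγR) are activating: they bind IgG and signal through a paired subunit, the Fc receptor gamma chain encoded by Fcer1g, whose tail holds an immunoreceptor tyrosine-based activation motif (ITAM) that recruits the kinase Syk. Fcgr2b encodes the inhibitory FcγR, whose own tail holds an inhibitory motif (ITIM) that recruits the phosphatase SHIP-1. Fcgrt and Fcer2a stand outside this scheme. Fcgrt encodes the heavy chain of the neonatal receptor that salvages IgG and albumin, and Fcer2a encodes CD23, the low-affinity IgE receptor, which is a C-type lectin.

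The opposing tails are shown as coding sequence, because they define the activating and the inhibitory arm whose balance was measured. Both stretches were taken from the longest coding GENCODE M1 transcript (mm9) and lie on the minus strand of chromosome 1. The Fcer1g stretch is coding bases 193 to 237, at chr1:173160020-173160203 in exons 4 and 5 of 5. The Fcgr2b stretch is coding bases 937 to 978, at chr1:172891190-172891231 in exon 8 of 8. Capitals mark the tyrosine codons of the motifs, and the codons of the coding sequences were searched in frame for both patterns. The ITAM pattern matched 1 of the 7 members, Fcer1g. The shorter and less specific ITIM pattern matched 5 members at any position (Fcgr1, Fcgr2b, Fcgr4, Fcer1g and Fcgrt), so that a match alone does not mark an inhibitory tail.
Fcer1g ITAM: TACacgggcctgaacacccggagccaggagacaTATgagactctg
Fcgr2b ITIM: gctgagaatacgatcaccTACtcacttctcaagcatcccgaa

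Fcgr2b and Fcgr3 are alike in much of their coding sequence, which matters for counting their reads. Of the bases that could be aligned between their coding sequences, 86.5% were identical, against 64.0% to 67.2% in the other FcγR pairs. The longest identical run was 129 bases, against 9 to 14 bases in the other pairs. The stretch around that run is printed for both genes, with the 5 bases that differ in capitals. It covers coding bases 238 to 446 of Fcgr2b (chr1:172896765-172898252, exons 3 and 4 of 8) and coding bases 223 to 431 of Fcgr3 (chr1:172984258-172987963, exons 3 and 4 of 5), both on the minus strand of mm9 and both across an intron.
Fcgr2b: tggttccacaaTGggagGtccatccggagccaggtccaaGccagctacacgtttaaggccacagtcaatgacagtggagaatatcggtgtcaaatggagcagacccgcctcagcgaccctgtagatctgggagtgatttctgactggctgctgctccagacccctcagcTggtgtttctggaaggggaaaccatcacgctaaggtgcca
Fcgr3: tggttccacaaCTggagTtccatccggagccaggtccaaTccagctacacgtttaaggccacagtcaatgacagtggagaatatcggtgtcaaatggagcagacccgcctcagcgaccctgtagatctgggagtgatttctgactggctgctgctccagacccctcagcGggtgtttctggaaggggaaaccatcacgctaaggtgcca
Of all windows of 75 bases, the read length, 94 of 1529 in Fcgr2b (6.15%) and 94 of 1273 in Fcgr3 (7.38%) also occurred in the other gene and in no further gene. With windows of 25 bases, the shortest read kept, the shares were 16.7% and 20.0%. Fcgr1, Fcgr4, Fcer1g and Fcgrt shared no window of 75 bases with another gene, and Fcer2a shared 8 of 2167 (0.369%). Reads from the shared stretches of Fcgr2b and Fcgr3 could have been counted for either gene or for none, so that a small part of both counts is uncertain.

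**Figure D1:**
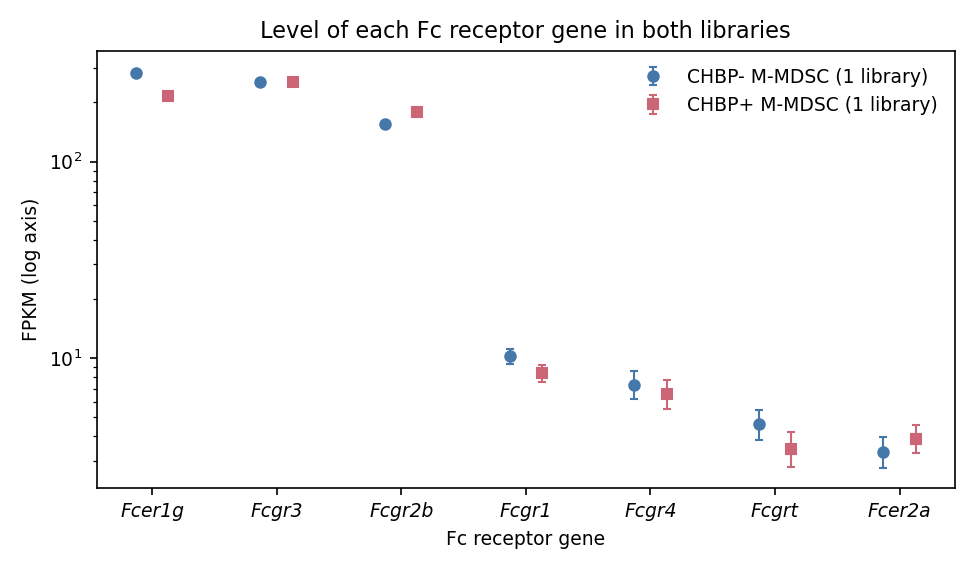
Level of the 7 Fc receptor genes in FPKM on a log axis, with CHBP- M-MDSC as circles and CHBP+ M-MDSC as squares (1 library each). Bars are 95% Poisson intervals of the reads, which for Fcer1g, Fcgr3 and Fcgr2b are smaller than the points; these 3 genes lie between 155 and 283 FPKM and the other 4 between 3.33 and 10.2 FPKM.

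All 7 genes had at least 1 FPKM in both libraries, and they fell into an abundant and a scarce group, as the plot of levels shows. In CHBP- M-MDSC the order by FPKM was Fcer1g, Fcgr3, Fcgr2b, Fcgr1, Fcgr4, Fcgrt and Fcer2a. The 95% Poisson intervals of neighbours in this order overlapped for Fcgrt and Fcer2a and for no other pair. Scaled to the longest coding transcript, the abundant group ran in another order in CHBP-, with Fcgr2b at 729, Fcgr3 at 722 and Fcer1g at 675. In CHBP+ M-MDSC the order was Fcgr3, Fcer1g, Fcgr2b, Fcgr1, Fcgr4, Fcer2a and Fcgrt, and the intervals overlapped for Fcgr1 with Fcgr4 and for Fcer2a with Fcgrt. By FPKM rank among all genes, Fcer1g stood at 140 in CHBP- and 160 in CHBP+, Fcgr3 at 155 and 139, and Fcgr2b at 266 and 189. Summed over the 7 genes, the level was 718 FPKM in CHBP- and 668 FPKM in CHBP+, whereas the reads summed to 43711 and 44097, so that the direction of the total depended on the scale.

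Fcgr3 (ENSMUSG00000059498, chromosome 1 from 171051174 to 171064935 on GRCm38) encodes FcγRIII, an activating receptor of moderate affinity and the most abundant ligand-binding FcγR by FPKM. It had 16042 reads in CHBP- and 15751 in CHBP+, or 254 FPKM (95% interval 250 to 258) and 253 FPKM (249 to 257). The libraries were level within counting error. The ratio of CPM (reads scaled to the library total), CHBP+ over CHBP-, was 0.994 with a 95% interval of 0.972 to 1.02, and the two-sided exact binomial test of its reads with Benjamini-Hochberg adjustment gave an adjusted p of 0.720.

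Fcgr1 (ENSMUSG00000015947, chromosome 3 from 96282909 to 96293969) encodes FcγRI or CD64, the high-affinity IgG receptor. It had 491 reads in CHBP- and 400 in CHBP+, or 10.2 FPKM (9.32 to 11.1) and 8.42 FPKM (7.61 to 9.28). Its level was lower in CHBP+, with intervals that did not overlap. The CPM ratio was 0.825 (0.721 to 0.943), or 1.21-fold lower in CHBP+, with an adjusted p of 0.0121 by the exact binomial test. Fcgr4 (ENSMUSG00000059089, chromosome 1 from 171018920 to 171029761) encodes FcγRIV, an activating receptor for IgG2 subclasses. It had 152 and 134 reads, or 7.34 FPKM (6.22 to 8.61) and 6.55 FPKM (5.49 to 7.76). These intervals overlapped. At a CPM ratio of 0.893 (0.702 to 1.13, adjusted p = 0.478, exact binomial test), a difference in Fcgr4 was not detectable at this depth.

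Fcgr2b (ENSMUSG00000026656, chromosome 1 from 170958617 to 170976547), the inhibitory receptor, was higher in CHBP+. It had 19275 reads in CHBP- and 21978 in CHBP+, or 155 FPKM (153 to 158) and 179 FPKM (177 to 182). The intervals were far apart at this depth, although the CPM ratio was no more than 1.15 (1.13 to 1.18), with an adjusted p of 1.43e-46 by the exact binomial test. It was the single member higher in CHBP+ by that test. A predicted gene, Gm38204, overlaps Fcgr2b in the table and had 15 and 34 reads. With both genes summed, the log2 ratio of Fcgr2b stayed at 0.21.

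The balance of the activating to the inhibitory FcγR therefore differed between the libraries, mainly through Fcgr2b. The sum of Fcgr1, Fcgr3 and Fcgr4 was 272 FPKM in CHBP- and 268 FPKM in CHBP+, and its ratio to Fcgr2b was 1.75 in CHBP- and 1.49 in CHBP+. The ratio in CHBP+ was 0.853 times that in CHBP-. Counted in reads, it was 0.866 in CHBP- and 0.741 in CHBP+, a change of 0.856 (95% interval 0.831 to 0.881). Fcgr3 carried this ratio, since leaving out Fcgr1 gave a change of 0.859 and leaving out Fcgr4 a change of 0.855 in FPKM. For Fcgr3 over Fcgr2b alone the change was 0.861 (0.836 to 0.887). The study's design has no second library to show how far such a ratio varies between cultures.

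**Figure D2:**
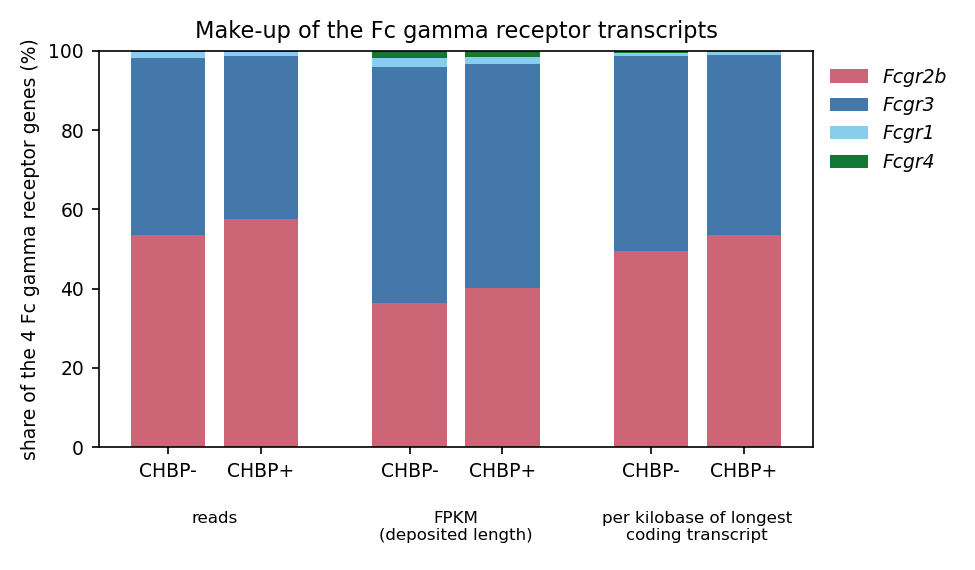
Share of each gene in the sum of the 4 FcγR genes, in percent, for CHBP- and CHBP+ M-MDSC (1 library each), counted in reads, in FPKM and per kilobase of the longest coding transcript. Fcgr2b takes a larger share in CHBP+ on each scale, and whether it or Fcgr3 takes the largest share depends on the scale.

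Which of Fcgr2b and Fcgr3 was the more abundant depended on the length used. The length cancels in the change of their ratio between the libraries, which is therefore the same on each scale by construction. The table scaled Fcgr2b to a length of 7526 bases and Fcgr3 to 3829 bases, while their longest coding transcripts in GENCODE M1 measure 1603 and 1347 bases. In FPKM, Fcgr3 was 1.64 times Fcgr2b in CHBP- and 1.41 times in CHBP+. Scaled to the longest coding transcript instead, in the same unit as FPKM, Fcgr2b was at 729 and Fcgr3 at 722 in CHBP-, a ratio of Fcgr3 to Fcgr2b of 0.990. In CHBP+ the same scale gave 842 for Fcgr2b and 718 for Fcgr3, a ratio of 0.853. The makeup plot shows the same for shares. Fcgr2b made up 53.6% (95% Clopper-Pearson interval 53.1% to 54.1%) of the reads of the 4 FcγR genes in CHBP- and 57.4% (56.9% to 57.9%) in CHBP+. In FPKM its share was 36.4% and 40.1%, and per transcript length 49.6% and 53.4%. Fcgr1 and Fcgr4 stayed at small shares, with 1.37% and 1.05% of the reads for Fcgr1 and 0.423% and 0.350% for Fcgr4.

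Fcer1g (ENSMUSG00000058715, chromosome 1 from 171229572 to 171234365), the shared signalling chain, was lower in CHBP+. It had 7496 reads in CHBP- and 5594 in CHBP+, or 283 FPKM (277 to 290) and 214 FPKM (209 to 220). The intervals did not overlap, and the CPM ratio was 0.756 (0.730 to 0.782), or 1.32-fold lower in CHBP+, with an adjusted p of 1.41e-55 by the exact binomial test. Set against its partners, Fcer1g was above the FPKM sum of Fcgr1, Fcgr3 and Fcgr4 in CHBP- (283 against 272) and below it in CHBP+ (214 against 268). Of the 3 scales, FPKM alone showed this crossing, since the ratio of Fcer1g to its partners was 0.910 in CHBP- and 0.694 in CHBP+ per transcript length and 0.449 and 0.344 in reads. The ratio of the chain to its partners changed by a factor of 0.767 in FPKM, and by 0.765 (0.734 to 0.797) in reads. Fcer1g also has the shortest coding transcript of the 7 genes, at 674 bases, and short transcripts were lower in CHBP+ throughout the table, as described for the length trend below. Markers of other Fc receptor-bearing myeloid cells were looked at as well. Of 7 granulocyte markers, the read test called 4 lower and 0 higher. Of all genes above 1 FPKM that it covered, the test called 27.8% lower and 25.7% higher. The 7 granulocyte markers summed to 221 FPKM in CHBP- and 160 FPKM in CHBP+, with Ly6g near 2 FPKM in both as given above. Their median log2 ratio of -0.22 became 0.03 with the length trend removed. Elane, Mpo and Cebpe then stayed below 0, and Ngp, Camp, Ltf and Ly6g lay above it. Of 6 dendritic cell markers, 3 were above 1 FPKM, and of these the read test called 1 higher and 1 lower. Zbtb46, below 1 FPKM at 0.280 and 0.537 FPKM, had 49 reads in CHBP- and 93 in CHBP+. It was called higher too (CPM ratio 1.92, 1.35 to 2.77, adjusted p = 0.000726, exact binomial test). The sum over the list was 128 FPKM in CHBP- and 158 FPKM in CHBP+, with Xcr1 at 0 reads. Itgax made up most of it, at 107 and 142 FPKM. Ccr7 was lower at 17.6 and 13.1 FPKM, and Flt3 was at 2.37 and 2.18 FPKM. The part of such cells in the Fcer1g difference was not tested.

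Fcgrt (ENSMUSG00000003420, chromosome 7 from 45092993 to 45103822), the neonatal receptor heavy chain, had 132 reads in CHBP- and 98 in CHBP+, or 4.61 FPKM (3.85 to 5.46) and 3.46 FPKM (2.81 to 4.22). The CPM ratio was 0.752 (0.573 to 0.984), and the call was lost on adjustment, from p = 0.0347 to an adjusted p of 0.0737 (exact binomial test). Its partner chain beta-2-microglobulin, encoded by B2m, had 1771 FPKM in CHBP- and 1400 FPKM in CHBP+. B2m was lower in CHBP+ at a CPM ratio of 0.790 (adjusted p = 2.03e-133, exact binomial test). B2m reads per Fcgrt read changed by 1.05, with an interval of 0.803 to 1.38 that included 1.

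Fcer2a (ENSMUSG00000005540, chromosome 8 from 3681737 to 3694174), the CD23 gene, had 123 reads in CHBP- and 142 in CHBP+, or 3.33 FPKM (2.77 to 3.97) and 3.89 FPKM (3.28 to 4.59). The intervals overlapped. The log2 ratio of CPM was 0.23 with an interval of -0.13 to 0.59, and no difference was detectable (adjusted p = 0.339, exact binomial test). CD23 is well known on B cells. Of 6 B cell marker genes, 5 had at least 1 FPKM in a library, and their sum over the list was 41.4 FPKM in CHBP- and 28.1 FPKM in CHBP+. Among them Cd79a, a chain of the B cell receptor, was at 18.5 and 10.5 FPKM, and Cr2 at 0.083 and 0.067 FPKM. The part of B cells in the Fcer2a reads was not tested, and in bulk RNA fewer cells of a type and less RNA per cell cannot be told apart.

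**Figure D3:**
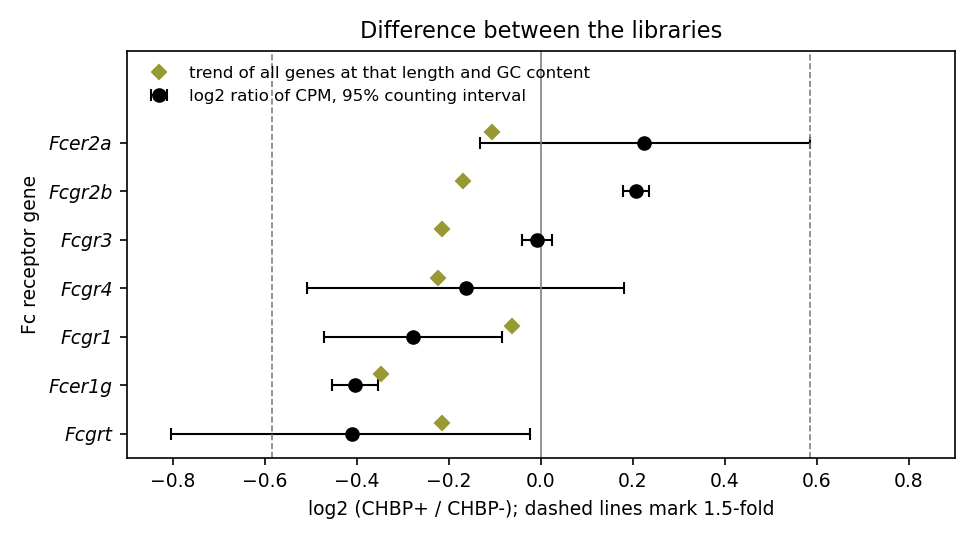
Log2 ratio of CPM, CHBP+ over CHBP-, for the 7 Fc receptor genes with 95% Clopper-Pearson counting intervals (black), beside the value of the trend of all genes at the same transcript length and GC content (diamonds, fitted on FPKM with 1 added). Dashed lines mark 1.5-fold; no gene's ratio lies beyond them, Fcgr2b lies above 0, and Fcer1g lies near its trend value.

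Counted as a family, the members were called about as often as all genes. The log2 ratio used for counts of genes was taken on FPKM with 1 added, which understates the change of low genes. It ran from -0.40 for Fcer1g to 0.21 for Fcgr2b, with a median of -0.14 over the 7 members against -0.03 over 10948 genes with at least 1 FPKM in a library. None of the 7 was 1.5-fold higher or lower, where 6.3% of those genes were past 1.5-fold in either direction (3.42% higher and 2.89% lower). By the exact binomial test at an adjusted p of 0.05, 1 member was higher (Fcgr2b) and 2 were lower (Fcgr1 and Fcer1g). At this depth the test called 44.1% of the 14162 genes with at least 10 reads, 21.9% higher and 22.2% lower, so 3 of 7 members is near the share in the whole table.

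**Figure D4:**
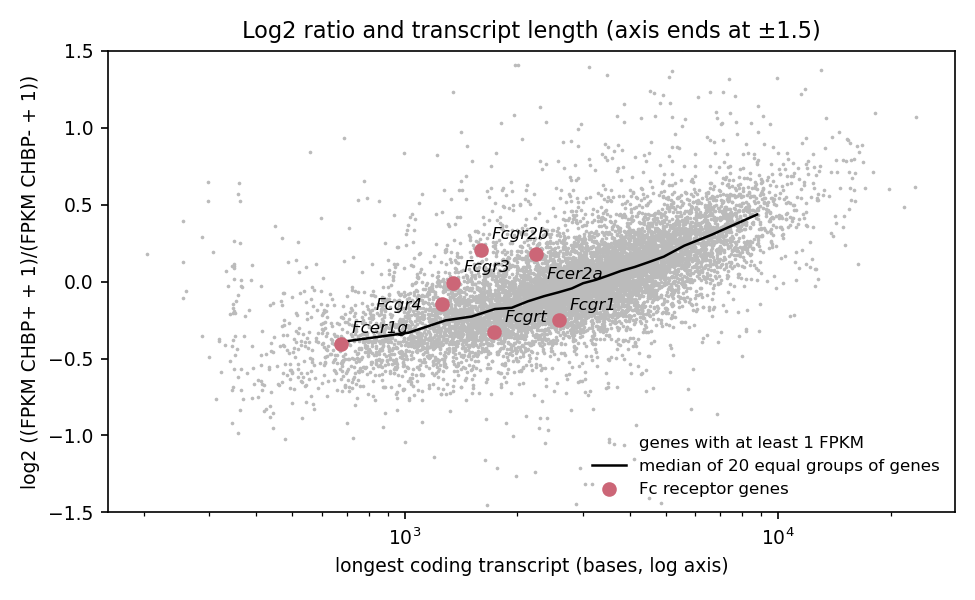
Log2 ratio of FPKM with 1 added, CHBP+ over CHBP-, against the length of the longest coding transcript in bases (log axis) for 10211 genes, with the median of 20 groups of equal size as a line and the Fc receptor genes as large points. Fcer1g sits on the line at the short end, whereas Fcgr2b, Fcgr3 and Fcer2a sit above it.

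The length of a transcript went with its log2 ratio across the table. Spearman's rho over 10211 genes, whose values are not independent of each other, was 0.687, longer transcripts being higher in CHBP+. A trend of length and GC content was fitted to all of these genes, and 5 of the 7 members lay within 1 SD (0.24 log2 units) of it. Fcgr2b and Fcer2a lay above it, by 0.38 and 0.28. For Fcer1g the trend value was -0.35 at an observed log2 ratio of -0.40, which left -0.06. For Fcgr2b it was -0.17 at an observed 0.21. Fcgr3, level between the libraries as counted, was 0.21 above a trend value of -0.22. Fcgr1 had a trend value of -0.06 and stayed 0.19 below it. With the trend removed, the median over the members was 0.08 in place of -0.14, and the change of the ratio of Fcer1g to the activating chains was 0.842 in place of 0.767. The part of this trend in the differences of Fcer1g and Fcgr2b was not tested.

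The promoter of Fcgr1 is printed because it alone among the members held the letters of a gamma interferon activation site, an element of interferon-responsive genes. It is the RefSeq sequence of the 250 bases before the start site, at chr3:96293970-96294219 on GRCm38.p6, minus strand.
Fcgr1 promoter: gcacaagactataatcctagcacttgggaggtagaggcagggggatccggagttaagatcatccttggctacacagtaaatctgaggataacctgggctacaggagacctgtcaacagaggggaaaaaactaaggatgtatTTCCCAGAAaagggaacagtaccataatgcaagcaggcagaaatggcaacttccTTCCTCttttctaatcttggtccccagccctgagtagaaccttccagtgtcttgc
Capitals mark TTCNNNGAA, whose first base lies at -109 from the start, and the reverse complement of GAGGAA at -55, the core letters bound by the myeloid factor PU.1. Searched on both strands in 32851 promoters of this length, TTCNNNGAA occurred in 7.02% and GAGGAA in 23.3%. These shares count promoters and not genes. The 7 members had 10 promoters, and GAGGAA occurred in 4 of these. They belong to 3 members, the activating receptors Fcgr1, Fcgr3 and Fcgr4. The Fcgr3 promoters overlap, with start sites at 171059394 and 171059403, and hold the same match. A match of letters is no evidence of binding. Spi1, which encodes PU.1, was at 85.7 FPKM in CHBP- and 72.0 FPKM in CHBP+, a log2 ratio of -0.25.

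**Figure D5:**
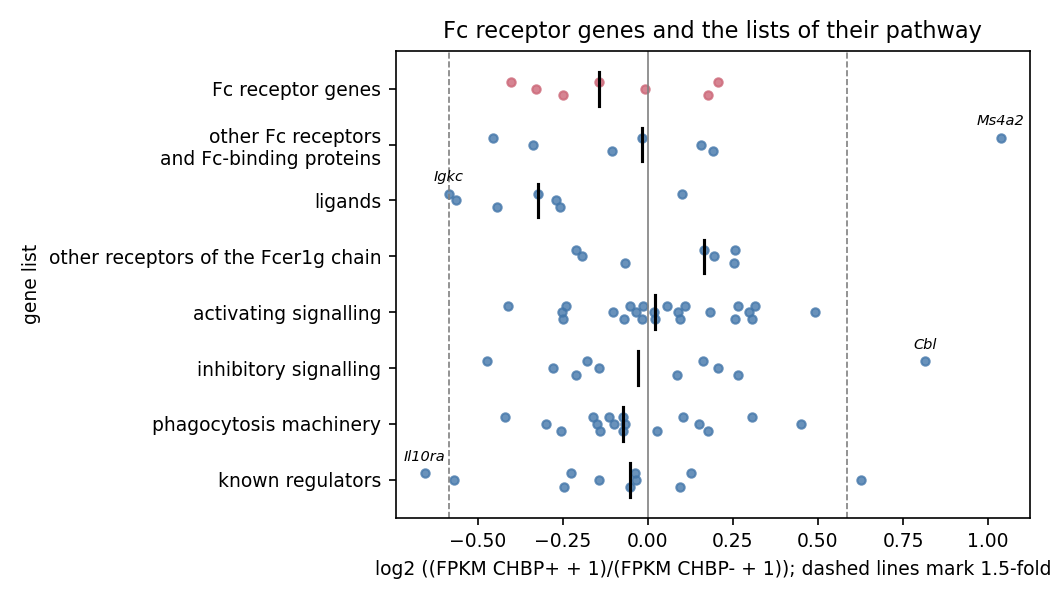
Log2 ratio of FPKM with 1 added, CHBP+ over CHBP-, of the Fc receptor genes (top) and of the genes with at least 1 FPKM in 7 lists of their pathway; bars are list medians and dashed lines mark 1.5-fold. Most points lie inside the lines, and Ms4a2, Cbl, Igkc and Il10ra are named among those outside.

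The rest of the pathway was described through 7 lists of 101 genes, of which 97 were in the table and 82 had at least 1 FPKM in a library. Of these, 3 were at least 1.5-fold higher in CHBP+ and 2 lower, with a median log2 ratio of -0.04. The read test called 27 of the 82 higher and 35 lower. Of all genes above 1 FPKM that the read test covered, it called 25.7% higher and 27.8% lower, and 3.42% and 2.89% were past 1.5-fold.

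Of 7 other Fc receptors and Fc-binding proteins above 1 FPKM, 1 passed 1.5-fold. This was Ms4a2, the beta chain that amplifies signals of the IgE receptor FcεRI, of which Fcer1g is also a subunit. Ms4a2 had 182 reads in CHBP- and 446 in CHBP+, or 2.46 and 6.11 FPKM. Its CPM ratio was 2.48 (2.08 to 2.96, adjusted p = 5.12e-26, exact binomial test). The IgE-binding chain Fcer1a had 246 and 224 reads, or 9.64 and 8.89 FPKM, and no difference was detectable (CPM ratio 0.922, 0.766 to 1.11, adjusted p = 0.516, exact binomial test). The 3 FcεRI chains thus differed in direction: Ms4a2 was higher, Fcer1g lower, and Ms4a2 reads per Fcer1a read changed by 2.69 (2.08 to 3.48). Of 7 mast cell and basophil markers, which include these 2 genes, the read test called 2 higher (Ms4a2 and Kit) and 4 lower, and their sum was 300 FPKM in CHBP- and 247 FPKM in CHBP+. Cpa3, a mast cell protease, was at 141 and 130 FPKM, and Mcpt8, a basophil protease, at 46.1 and 29.9 FPKM. With the length trend removed, the log2 ratios of Kit and Cpa3 changed sign, to -0.04 and 0.03. The part of such cells in the FcεRI chains and in Fcer1g was not tested. Fcmr, a receptor for IgM, was lower in CHBP+ at 4.22 and 2.81 FPKM (CPM ratio 0.665, 0.533 to 0.829). Fcrlb, an intracellular Fc receptor-like protein, was at 26.9 and 30.9 FPKM (CPM ratio 1.15, 1.02 to 1.29).

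Of 7 Fc receptor ligands above 1 FPKM, 0 passed 1.5-fold upwards and 1 downwards, with a median log2 ratio of -0.32 that became -0.04 with the length trend removed. The read test called 6 of the 7 lower. Igkc, the kappa light chain, was at 192 FPKM in CHBP- and 128 FPKM in CHBP+ (CPM ratio 0.665, adjusted p = 3.23e-25, exact binomial test), and Ighm, the IgM heavy chain, at 82.8 and 65.9 FPKM. Immunoglobulin transcripts are products of B-lineage cells, whose markers were given beside Fcer2a, and their part here was not tested. Ptx3, a pentraxin that also binds FcγR, was at 30.8 and 33.1 FPKM.

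Receptors that share the Fcer1g chain with the FcγR were split gene by gene, while their sum, most of it from Clec4n, was lower in CHBP+. The sum over the list was 1089 FPKM in CHBP- and 979 FPKM in CHBP+, or 51108 and 46430 reads. Of 7 above 1 FPKM, the read test called 4 higher and 2 lower, with a median log2 ratio of 0.16, or 0.22 with the length trend removed. The lower ones were the C-type lectins Clec4n (dectin-2), at 815 and 713 FPKM, and Clec4d, at 178 and 154 FPKM. Clec4e, which encodes the mycobacterial glycolipid receptor Mincle, was higher at 23.0 and 25.9 FPKM, and Cd300ld at 51.6 and 61.6 FPKM.

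Genes of the activating cascade were split. Of 23, none passed 1.5-fold, the read test called 10 higher and 5 lower, and the median log2 ratio was 0.02, or -0.03 with the length trend removed. Syk, the kinase that docks on the ITAM, was at 37.9 FPKM in CHBP- and 43.1 FPKM in CHBP+ (CPM ratio 1.14, 1.10 to 1.17, adjusted p = 5.34e-17, exact binomial test). Its log2 ratio of 0.18 became 0.01 with the length trend removed. Of the Src-family kinases that phosphorylate the motifs, Lyn had 4338 and 4336 reads, and Fgr was at 59.0 and 58.4 FPKM. Card9, an adaptor downstream of Syk, was lower at 39.2 and 29.2 FPKM, and Btk, a kinase that acts on phospholipase C gamma, was higher at 46.1 and 55.3 FPKM.

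Of 10 genes of inhibitory signalling, 1 passed 1.5-fold upwards, and the read test called 4 higher and 4 lower. Inpp5d, which encodes SHIP-1, the phosphatase recruited by the Fcgr2b ITIM, was at 17.1 FPKM in CHBP- and 19.2 FPKM in CHBP+. Its CPM ratio was 1.13 (adjusted p = 2.14e-06, exact binomial test), beside 1.15 for Fcgr2b, and its log2 ratio of 0.16 became 0.02 with the length trend removed, while that of Fcgr2b became 0.38. Cbl, a ubiquitin ligase that acts on activated Syk and receptors, had 3439 and 6190 reads, or 11.8 and 21.6 FPKM. Its CPM ratio was 1.82 (1.75 to 1.90, adjusted p = 1.95e-180, exact binomial test), and it remained 0.62 above the trend. The phosphatase Ptpn6 (SHP-1) was lower at 69.6 and 61.3 FPKM, and the adaptor Dok3 at 49.1 and 35.1 FPKM.

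In the phagocytosis machinery, none of 17 genes passed 1.5-fold, and the read test called 5 higher and 11 lower at a median log2 ratio of -0.07. Cfl1 (cofilin, which severs actin filaments) was lower at 919 and 687 FPKM, and Rac2, a GTPase of haematopoietic cells, at 183 and 153 FPKM. Nckap1l, a subunit of the haematopoietic actin-nucleating WAVE complex, was higher at 101 and 125 FPKM. Of 11 regulators of Fc receptor expression, 1 passed 1.5-fold each way, and the read test called 2 higher and 5 lower. The lower one was Il10ra, the ligand-binding chain of the receptor for interleukin-10, a cytokine known to raise Fcgr1. Il10ra had 2140 reads in CHBP- and 1292 in CHBP+, or 15.7 and 9.59 FPKM (CPM ratio 0.611, 0.570 to 0.655, adjusted p = 3.73e-44, exact binomial test), and Fcgr1 was lower as well. Cebpb, a myeloid transcription factor whose entry overlaps Tmem189, was at 61.2 and 40.9 FPKM.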

How the data were processed

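The authors trimmed single-end reads, removed those under 25 bases and ribosomal RNA, and deposited raw read counts per gene. In the deposited FPKM, each count is divided by the library's total and a length per gene. The methods name TopHat2, HT-seq and mm9, whereas the submitters' processing notes name HISAT2 2.0.4, Cufflinks 2.1.1, Cuffdiff and mm10, and all 7 members lie on GRCm38. How strand and multi-mapping reads were counted is not given in the sources used here. A gene without reads could reach 0.182 (CHBP-) or 0.184 CPM (CHBP+), the level of 3 reads.

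Log2 ratios used FPKM with a pseudocount of 1 for genes of at least 1 FPKM in a library. DESeq is named in the methods, but no model was fitted, since 1 library per condition leaves no spread to estimate. The read test was an exact binomial test (two-sided) against the totals, with Benjamini-Hochberg adjustment over genes of at least 10 reads, and was checked on simulated data. Intervals were 95% Clopper-Pearson for CPM ratios and shares, Poisson for levels and exact conditional for ratios of reads. Because reads can be copies of 1 molecule, they cover counting error alone. The trend was a least-squares polynomial in log10 length (cubic) and GC content (quadratic) of the longest coding GENCODE M1 transcript, matched by gene identifier for 93.3% of kept genes.

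The members and lists were chosen with earlier results of these data known. Named genes were the 7 members, list genes past 1.5-fold, the most abundant of each list, Syk, Inpp5d, B2m and genes overlapping a member; other named genes were chosen after their values were seen. Of the Fcer1g-chain receptors, 4 Pira symbols were not found. Promoters came from RefSeq, and protein sequences were not used here. Some list and neighbouring genes are not reported here. Settings varied were the pseudocount (0.1), the minimum FPKM (none or 5), the fold (2), the scaling (CPM, median centring, or edgeR's trimmed mean of M values), the minimum of the read test (1 read), overlapping genes, and the trend; transcript length as the scale was added after seeing the data. Software was Python 3.11.15 with numpy 2.4.6, pandas 2.3.3, scipy 1.17.1, Biopython 1.88 and matplotlib 3.10.9, and R 4.3.3 with edgeR 4.0.16.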

Additional observations from a re-analysis of the deposited data

How the results depend on the processing

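No paired analysis was possible because each condition was 1 library, and for the same reason no replicate could be left out. No member passed 1.5-fold under any alternative, and the read test kept its calls on all 7 members with genes of at least 1 read. CPM, a pseudocount of 0.1 and trimmed mean of M values moved no member beyond its counting interval, median centring moved Fcgr2b (to 0.23), and removal of the trend moved Fcgr2b (0.38), Fcgr3 (0.21) and Fcer1g (-0.06). The sign of Fcgr3, not called in the read test, changed with 3 of these, and that of Fcgr4 with the trend removed (0.08). Of 31 named pathway genes, removal of the trend moved 22 beyond their counting interval and changed the sign of 2 (Fcer1a and Lyn), neither called in the read test. Lower genes came nearer to 0, such as Cfl1 (-0.42 to -0.14), Cebpb (-0.57 to -0.18), Dok3 (-0.47 to -0.16), B2m (-0.34 to -0.09), Clec4n (-0.19 to -0.01) and Spi1 (-0.25 to -0.04). Pathway genes past 1.5-fold went from 3 to 1 higher at a fold of 2, and from 2 lower to 1 with median centring, trimmed mean of M values or the trend removed and to 0 at a fold of 2. All genes past 1.5-fold went from 374 higher to 665 with a pseudocount of 0.1, 218 at 5 FPKM, 796 in CPM, 85 at a fold of 2 and 189 with the trend removed, and from 316 lower to 571, 209, 464, 46 and 100. The activating to inhibitory ratio was 0.866 (CHBP-) and 0.741 (CHBP+) in CPM and 1.02 and 0.872 per transcript length, and Fcgr3 over Fcgr2b was 0.832 and 0.717 in CPM and 0.990 and 0.853 per transcript length. The change of Fcer1g over the activating chains was 0.842 with the trend removed. Transcript length enters through its own construction, and other causes were not tested. For genes near 100 reads, such as Fcgrt, Fcgr4 and Fcer2a, depth limits what can be seen.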

Other observations

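Fcgr2b, Fcgr4, Fcgr3 and Fcer1g lie close together on chromosome 1, between 170958617 and 171234365 on GRCm38, and the genes between and beside them were read for comparison after their values were seen. Fcrlb, on the side of Fcgr2b, was at 26.9 and 30.9 FPKM, and Fcrla beside it had 88 reads in CHBP- and 85 in CHBP+. Gm10522, a predicted gene between Fcgr2b and Fcgr4, had 115 and 83 reads (CPM ratio 0.731, 0.544 to 0.978, adjusted p = 0.0702, exact binomial test). Sdhc, a subunit of succinate dehydrogenase between Fcgr3 and Fcer1g, was lower in CHBP+ at 32.1 and 26.1 FPKM (CPM ratio 0.812, adjusted p = 2.22e-09, exact binomial test). Tomm40l, just before Fcer1g, had 335 and 382 reads (CPM ratio 1.15, adjusted p = 0.112, exact binomial test), and Nr1i3 had none. Neighbours thus stood on both sides of 0, as the members did.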
